A study of Mus musculus with 2 samples.

Results

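The genes described are 10 aldo-keto reductases of the mouse, Akr1b3, Akr1b7, Akr1b8, Akr1b10, Akr1c12, Akr1c13, Akr1c14, Akr1c18, Akr1d1 and Akr1e1, out of 55536 annotated genes. They were taken by symbol, as the Akr1b and Akr1c genes of interest together with Akr1d1 and Akr1e1, and all 10 were found. Their RNA was measured in adrenal glands of 2 female mice of strain B6CASTF1/J, the first-generation cross of C57BL/6J with CAST/EiJ, aged 18 to 20 months. Each animal gave 1 library of total RNA, made from 300 ng with a strand-keeping kit and synthetic ERCC spike-ins. Both animals carry the same genotype and had no treatment named in the labels, so the samples form 1 group and the animals are called animal 2 and animal 1 after their replicate numbers. Part of each genome comes from CAST/EiJ while the tables rest on the C57BL/6J reference; the part of this in the values was not tested.

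Aldo-keto reductases are soluble enzymes that use NADPH or NADH to turn aldehydes and ketones into alcohols. The Akr1b branch holds aldose reductase and close relatives that reduce sugars and short aldehydes, the Akr1c branch holds hydroxysteroid dehydrogenases, and Akr1d1 reduces the double bond of the steroid A ring. In the adrenal cortex the cleavage of the cholesterol side chain releases isocaproaldehyde, a substrate of the mouse Akr1b7 enzyme. Akr1c18, the 20-alpha-hydroxysteroid dehydrogenase, inactivates progesterone and is known in the mouse adrenal as a marker of the X-zone, the layer of cortex next to the medulla.

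Expected counts, which are estimated reads per gene and need not be whole, summed to 35135703 in animal 2 and 35769717 in animal 1. TPM is the level per transcript length, scaled so that every library has the same total. The gland was recognised by its defining genes. The 7 cortex markers were all detected and summed to 20107 TPM in animal 2, against 15669 TPM in animal 1, and the 6 chromaffin markers of the medulla summed to 1526 and 1807 TPM. The 6 striated muscle markers summed to 0.34 TPM in animal 2, against 156 TPM in animal 1, so animal 1's library held far more muscle transcript. The 6 adipocyte markers summed to 2034 TPM in animal 2, against 3212 TPM in animal 1, and the 6 kidney markers to 1.69 and 1.40 TPM. In bulk tissue, fewer cells of a type and less RNA per cell cannot be told apart. One label field of animal 2 repeats the names of animal 1, and both samples carry the same donor identifier. The other fields name separate females and tissue samples, and the libraries are treated as 2 animals on that basis. Whether they come from 1 animal, or were mislabelled, cannot be told from the labels, and each SD over n = 2 and each difference between the animals rests on this reading.

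The family ranged from 1034 TPM, for Akr1c18 in animal 2, down to 0.06 TPM, for Akr1c12 in the same animal. Detection was set at 1 TPM or more in both libraries, and 8 of the 10 genes reached it, against 22.6% of all genes. Akr1c14 and Akr1c12 did not. The 10 genes summed to 2762 TPM in animal 2, against 1931 TPM in animal 1 (2346 ± 587 TPM, SD, n = 2), or 0.276% and 0.193% of all TPM. Akr1b7, Akr1d1 and Akr1c18 together held 91.2% of that sum in animal 2 and 89.3% in animal 1. Without Akr1c18 the other genes summed to 1728 TPM in animal 2, against 1815 TPM in animal 1, which is a smaller gap and of the opposite sign.

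**Figure D1:**
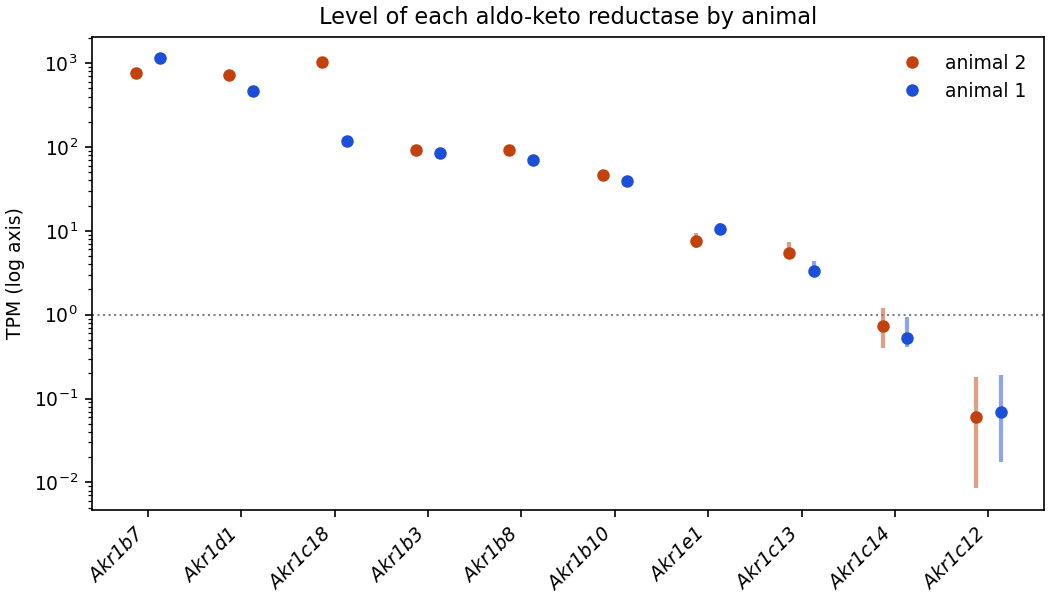
TPM (log axis) of each gene in animal 2 (left point) and animal 1 (right point), with the deposited interval of the posterior TPM as a bar and a dotted line at 1 TPM. Akr1c18 has the widest gap, with 1034 TPM in animal 2, against 116 TPM in animal 1, and Akr1c14 and Akr1c12 lie under the line in both animals.

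Akr1b7 was the highest gene of the family on average. It had 763 TPM in animal 2, against 1144 TPM in animal 1 (954 ± 270 TPM, SD, n = 2), from 32016 and 52578 expected counts. That put it at rank 57 of all genes in animal 2 and rank 52 in animal 1. Scaled for library size with TMM, its counts were 1.55-fold higher in animal 1 (95% interval 1.53 to 1.57, exact binomial, counting error only), a log2 ratio of animal 2 over animal 1 of -0.63. The adipocyte, chromaffin and striated muscle markers, 6 each, all had more scaled counts in animal 1 as well; their part in the result was not tested. Akr1b7 (ENSMUSG00000052131.7, chr6:34412334-34423142, plus strand, GRCm38) has 1 annotated transcript with a coding sequence of 951 bases over 10 exons.

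Akr1d1, the steroid 5-beta-reductase best known from bile acid synthesis in liver, was the next gene on average. It had 721 TPM in animal 2, against 464 TPM in animal 1 (592 ± 182 TPM, SD, n = 2), from 66062 and 46631 expected counts, the most reads of the family on average. Its scaled counts were 1.5-fold higher in animal 2 (95% interval 1.48 to 1.52, counting error only), a log2 ratio of 0.59. The 6 liver markers summed to 7.16 TPM in animal 2, against 17.7 TPM in animal 1, with albumin at 3.45 and 11.3 TPM and Cyp7a1, the rate-limiting enzyme of bile acid synthesis, at 0 counts in both animals. The part of liver RNA in the Akr1d1 level was not tested.

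Nearly all Akr1d1 reads lay on the coding transcript in the gene-level quantification. Akr1d1-201, of 2699 bases, took 99.1% of the gene's TPM in animal 2 and 99.5% in animal 1. In the second transcript table, a separate quantification of the same libraries, its share was 72.1% in animal 2 and 75.1% in animal 1, and the rest was placed on Akr1d1-202, a non-coding transcript of 415 bases. A processed pseudogene, Gm7463, lies inside Akr1d1 on the same strand. It was given 267 expected counts in animal 2, against 191 in animal 1, beside the 66062 and 46631 of Akr1d1. The gene (ENSMUSG00000038641.12, chr6:37530173-37568815, plus strand) lies on chromosome 6 but outside the Akr1b cluster, next to Creb3l2 (21.5 TPM in animal 2, against 24.6 TPM in animal 1) on one side and Ybx1-ps2 (0.24 and 0.27 TPM) on the other.

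Akr1c18 differed between the animals more than any other gene of the family. It had 1034 TPM in animal 2, against 116 TPM in animal 1 (575 ± 648 TPM, SD, n = 2), from 40158 and 4959 expected counts, so the SD exceeds the mean. Scaled counts were 8.58-fold higher in animal 2 (95% interval 8.33 to 8.84, counting error only), a log2 ratio of 3.10. It stood at rank 45 of all genes by TPM in animal 2 and at rank 529 in animal 1. Only 0.442% of the 13570 genes averaging 50 counts or more had a log2 ratio at least as far from 0. With 1 library per animal the difference has no replicate check, and animal and library cannot be told apart. The striated muscle, adipocyte and chromaffin sums given above were lower in animal 2, where Akr1c18 was higher; their part in the result was not tested.

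A gene was called apart where the scaled counts differed at least 2-fold, the 2 counts averaged 50 or more and the deposited TPM intervals did not overlap. Akr1c18 was the 1 gene called among the 8 of the family with enough counts. Of all 13570 genes averaging 50 counts or more, 3.47% were called, 1.72% higher in animal 2 and 1.75% higher in animal 1. The other 2 X-zone genes were listed for comparison. Pik3c2g, a lipid kinase described in that zone, had 13.2 TPM in animal 2, against 1.52 TPM in animal 1, and was called. Thrb, a thyroid hormone receptor, had 27.8 TPM in animal 2, against 19.8 TPM in animal 1, and was not called. The cortex markers moved both ways, with 4 of 7 higher in animal 2 and none called. Star, the carrier of cholesterol into the mitochondrion, had 5374 TPM in animal 2, against 2984 TPM in animal 1, and Cyp11a1, which cleaves the cholesterol side chain, had 2034 TPM in animal 2, against 2335 TPM in animal 1.

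The 5 genes whose log2 ratio lay nearest to that of Akr1c18, over 2 libraries, were Ssu2, Fetub, Hist1h2ao, Obp2a and Pik3c2g. The list comes from 1 difference between 2 libraries, so it describes a similar size of difference and nothing more. The liver-secreted protein gene Fetub had 23.6 TPM in animal 2, against 2.96 TPM in animal 1, and the odorant-binding protein gene Obp2a had 20.2 and 2.67 TPM. Ssu2 had 3.53 TPM in animal 2, against 0.38 TPM in animal 1. The histone gene Hist1h2ao, at 13.4 and 1.32 TPM, belongs to a multigene family of near-identical copies, and its value is uncertain. All 5 lay below Akr1c18 in level in both animals.

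**Figure D2:**
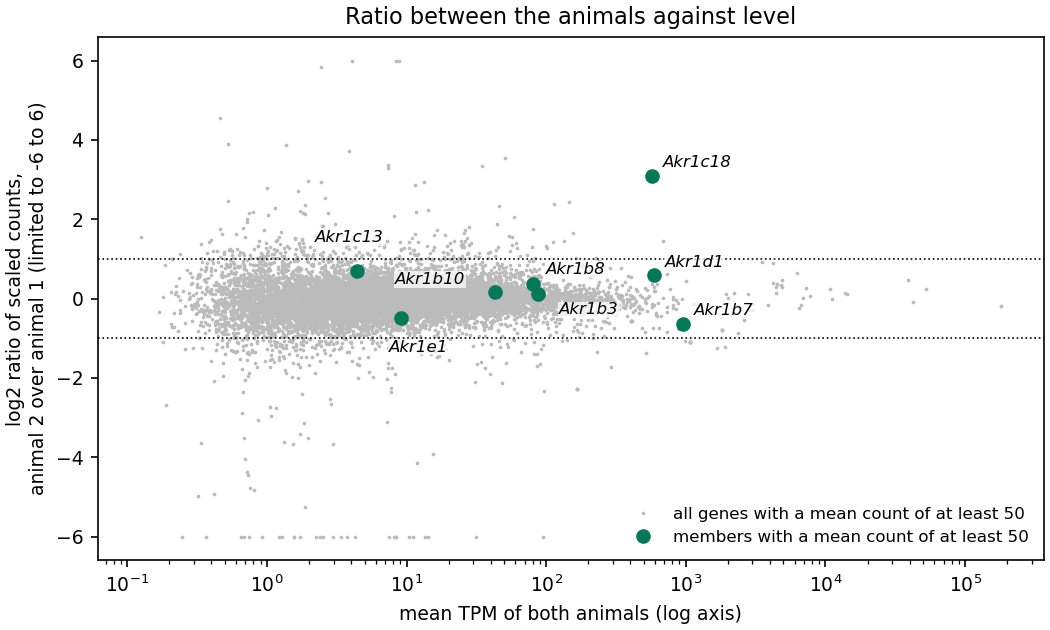
Log2 ratio of scaled counts, animal 2 over animal 1 (limited to -6 to 6 for drawing), against the mean TPM of both animals (log axis); grey points are all genes averaging 50 counts or more and green points are the 8 reductases that reach it. Dotted lines mark a 2-fold difference; Akr1c18, at 3.10, is the only green point beyond them.

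The stretches before the start sites of the 3 most abundant genes are shown for the short motifs found in them. They are from RefSeq (GRCm38.p6), 5′ to 3′ on the strand of the gene, from 250 to 41 bases before the start. Capitals mark matches, on either strand, to the GC box GGGCGG, the CCAAT box CCAAT, the TATA box TATAAA or the nuclear receptor motif AGGTCA. The Akr1b7 stretch is chr6:34412112-34412321 on the plus strand, the Akr1d1 stretch is chr6:37529923-37530132 on the plus strand and the Akr1c18 stretch is chr13:4150687-4150896 on the minus strand.
Akr1b7: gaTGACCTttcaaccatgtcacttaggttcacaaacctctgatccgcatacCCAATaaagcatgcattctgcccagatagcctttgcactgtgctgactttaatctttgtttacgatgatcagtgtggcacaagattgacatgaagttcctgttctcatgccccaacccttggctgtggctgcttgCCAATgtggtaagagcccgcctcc
Akr1d1: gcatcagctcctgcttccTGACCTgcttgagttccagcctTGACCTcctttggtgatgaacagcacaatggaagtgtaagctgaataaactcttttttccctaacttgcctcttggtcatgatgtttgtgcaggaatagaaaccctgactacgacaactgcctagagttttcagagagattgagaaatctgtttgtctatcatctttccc
Akr1c18: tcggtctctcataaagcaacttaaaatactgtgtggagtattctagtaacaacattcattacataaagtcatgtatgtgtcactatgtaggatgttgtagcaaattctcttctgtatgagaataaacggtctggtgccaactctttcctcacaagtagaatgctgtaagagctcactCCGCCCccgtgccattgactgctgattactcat

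Windows from 250 bases before to 50 bases after the start were matched for 9 of the 10 genes, and searched on both strands beside all 32851 windows of the table. The nuclear receptor motif AGGTCA was in 4 of 9, namely Akr1b7, Akr1d1, Akr1c18 and Akr1b10, and in 16.3% of all windows. It was the 1 motif searched that all 3 of the most abundant genes held. In Akr1d1 it occurs at -232 and -210, both on the opposite strand, and in Akr1c18 at 27, after the start. CCAAT was in 3 of 9 (Akr1b7, Akr1e1 and Akr1c14) and in 37.4% of all windows, and GGGCGG was in 3 of 9 (Akr1c18, Akr1b8 and Akr1b10) and in 35.7%. TATAAA was in Akr1b8 alone, against 13.6% of all. The extended motif CAAGGTCA of Nr5a1, which contains AGGTCA, was in none of the 9 and in 1.56% of all windows. The cAMP response element TGACGTCA was likewise in none of the 9 (1.79% of all), and so was the antioxidant element TGACNNNGC (12.4% of all). The 9 windows held 39.7% to 51.0% G and C, all under the median of 52.7%. A match is a run of letters and not a shown binding site.

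The 3 other Akr1b genes were detected at lower levels and differed less between the animals. Akr1b3, aldose reductase, which turns glucose into sorbitol, had 91.3 TPM in animal 2, against 83.9 TPM in animal 1 (87.6 ± 5.20 TPM, SD, n = 2). Its deposited intervals overlapped, and its log2 ratio was 0.12. Akr1b8, first described as a protein regulated by fibroblast growth factor, had 91.8 TPM in animal 2, against 69.3 TPM in animal 1 (80.6 ± 15.9 TPM), with a log2 ratio of 0.36. Akr1b10 had 46.5 TPM in animal 2, against 39.1 TPM in animal 1 (42.8 ± 5.29 TPM), with a log2 ratio of 0.16. The intervals of Akr1b8 and of Akr1b10 did not overlap between the animals, although neither gene reached 1.5-fold. Across the family, 6 of the 8 detected genes had intervals that did not overlap, against 33.3% of the 12552 genes detected in both libraries. Such intervals narrow with depth, so genes with many reads separate more easily.

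Ratios between genes inside a library do not depend on scaling between libraries, and 8 pairs were compared in this way. Akr1b7 exceeded Akr1b3 by 3.06 on the log2 scale in animal 2 and by 3.77 in animal 1 (3.42 ± 0.50, SD, n = 2), and Akr1b8 by 3.06 and 4.04 (3.55 ± 0.70). The Akr1b8 to Akr1b10 ratio was steadier, at 0.98 in animal 2 and 0.83 in animal 1 (0.90 ± 0.11). Akr1d1 exceeded Akr1c14 by 9.84 ± 0.13 and Akr1c13 exceeded it by 2.76 ± 0.20, while Akr1c14 against Akr1c18 gave -9.10 ± 1.91, the widest spread of the 8 pairs. Akr1c14 had only 38 and 50 counts, and these SDs leave out the choice of quantification. In the second table the means were 10.1 for Akr1d1 over Akr1c14, 2.82 for Akr1c13 over Akr1c14 and 2.74 for Akr1b7 over Akr1b3. From expected counts without length they were 10.3, 1.99 and 3.76. The counts of Akr1c12, the remaining pair's lower gene, are too few for such a value and are given with their intervals below. Akr1b3 and Akr1b8 swapped places between the animals, as did Akr1d1 and Akr1c18, and their ranges overlap. Every other neighbouring pair in the order of mean TPM had the same order in both animals. Akr1c18 and Akr1b7, which are not neighbours in that order, also swapped. Akr1c18 was the highest gene in animal 2 (1034 TPM, against 763 TPM for Akr1b7), and Akr1b7 was the highest in animal 1 (1144 TPM, against 116 TPM for Akr1c18).

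The reads of Akr1b3 are harder to place than those of any other gene here. Of the 50-base windows of its main transcript, 59.9% occur word for word in another annotated gene. The copies are processed pseudogenes without introns: Gm6644 shares 56.2% of the windows, Gm6736 48.9% and Gm12138 40.9%. Against the Akr1b3 coding sequence, Gm6644 differs at 3 of 951 bases, Gm6736 at 5 of 948 and Gm12138 at 9 of 951. A stretch of 120 bases with the most differences from Gm12138 is shown, because a read from the coding sequence must cover a differing base to be told apart. Capitals mark the 4 differing bases. The Akr1b3 stretch holds coding bases 91 to 210, from GENCODE M21 transcripts on GRCm38 (chr6:34312664-34312783, minus strand), and the Gm12138 stretch is at chr11:40673647-40673766 on the minus strand.
Akr1b3: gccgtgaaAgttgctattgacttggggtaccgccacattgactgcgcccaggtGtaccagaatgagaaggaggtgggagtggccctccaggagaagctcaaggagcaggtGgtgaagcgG
Gm12138: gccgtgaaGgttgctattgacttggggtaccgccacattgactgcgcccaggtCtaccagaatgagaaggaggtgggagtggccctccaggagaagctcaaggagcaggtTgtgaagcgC

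The split of reads among these copies depended on the quantification. In the gene table, Gm12138 had 1214 expected counts in animal 2, against 1229 in animal 1, or 40.1 and 37.1 TPM, and Gm6736 had 514 and 479 counts. Gm6644, the closest copy, had 4.05 and 0 counts. Akr1b3 itself had 3062 counts in animal 2, against 2979 in animal 1, which was 63.9% and 63.6% of the sum over the 4 loci. In the second table Gm12138 had 621 counts in animal 2, against 577 in animal 1, while Akr1b3 had 3110 and 3075 and took 71.5% and 73.4% of the sum. The Akr1b3 level is therefore given as uncertain, and whether the pseudogenes are transcribed was not tested. The antisense gene Gm14546, which overlaps Akr1b3 on the other strand, had 0 counts in both animals.

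The Akr1c genes other than Akr1c18 were low. Akr1c13 had 5.51 TPM in animal 2, against 3.30 TPM in animal 1 (4.41 ± 1.56 TPM, SD, n = 2), from 214 and 141 counts, a ratio of 1.61-fold (95% interval 1.29 to 2.00, counting error only). Akr1c14, a 3-alpha-hydroxysteroid dehydrogenase, had 0.73 TPM in animal 2, against 0.53 TPM in animal 1, from 38 and 50 counts. Its TPM was higher in animal 2 while its scaled counts were lower there, with a log2 ratio of -0.31, and its deposited intervals overlapped. The transcript placement differed as well: Akr1c14-201 took 33.3% of the gene's TPM in animal 2 and 88.7% in animal 1. Akr1c12 had 0.06 TPM in animal 2, against 0.07 TPM in animal 1, from 2.37 and 3.35 expected counts, beside the 3 counts that a count of 0 allows, and no ratio between the animals is given for it.

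Akr1c13 and Akr1c12 are the closest pair of the family and differed widely in level. Their coding sequences are 96.2% identical, with 37 of 972 bases differing, and 28.6% of the 50-base windows of each main transcript occur in the other. The counts were 214 against 2 in animal 2, a ratio of 107 (95% interval 29.3 to 889, exact, counting error only), and 141 against 3 in animal 1, a ratio of 47 (15.8 to 231). The stretch of 120 coding bases with the most differences, 14, is shown because it lies where reads can tell the genes apart. It covers coding bases 291 to 410 of each gene and crosses 1 intron that is not printed, within chr13:4194715-4196473 on the plus strand for Akr1c13 and chr13:4274384-4275802 on the minus strand for Akr1c12 (GENCODE M21 on GRCm38). Capitals mark the bases that differ.
Akr1c13: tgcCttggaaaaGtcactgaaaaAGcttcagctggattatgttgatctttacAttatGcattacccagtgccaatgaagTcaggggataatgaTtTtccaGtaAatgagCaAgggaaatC
Akr1c12: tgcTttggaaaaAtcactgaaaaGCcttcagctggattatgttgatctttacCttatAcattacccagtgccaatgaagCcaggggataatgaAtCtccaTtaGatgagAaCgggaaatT

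The stretches before their start sites are also nearly the same, and are shown because the genes beyond them had such different counts. The windows from 250 bases before to 50 after the start were 95.9% identical over 296 aligned bases. Of the 210 bases printed, 206 align and 9 of those differ; capitals mark these and the bases at the ends or gaps with no partner. The stretches are from RefSeq (GRCm38.p6), chr13:4190937-4191146 on the plus strand for Akr1c13 and chr13:4279440-4279649 on the minus strand for Akr1c12. None of the 7 motifs searched was found in either window.
Akr1c13 upstream: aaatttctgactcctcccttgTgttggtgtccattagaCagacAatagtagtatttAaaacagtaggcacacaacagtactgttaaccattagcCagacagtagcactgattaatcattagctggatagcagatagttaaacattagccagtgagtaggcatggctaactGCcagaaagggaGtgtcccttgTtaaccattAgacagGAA
Akr1c12 upstream: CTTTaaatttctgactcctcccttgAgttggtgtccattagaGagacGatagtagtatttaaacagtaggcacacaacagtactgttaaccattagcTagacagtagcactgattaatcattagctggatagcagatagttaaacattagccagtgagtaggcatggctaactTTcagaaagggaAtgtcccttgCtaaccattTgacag

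Sequence identity sorted the genes into the 2 named branches. Within Akr1b the 6 pairs of coding sequences were 72.2% to 89.3% identical (median 79.3%), and within Akr1c the 6 pairs were 72.5% to 96.2% identical (median 73.9%). The 33 pairs between branches, with Akr1d1 and Akr1e1 each counted apart, were 58.7% to 68.0% identical (median 61.4%). Close sequences could lie far apart in level. Akr1b7 and Akr1b10, at 89.3% identity, had 763 and 46.5 TPM in animal 2, and 1144 and 39.1 TPM in animal 1. Akr1c18 and Akr1c14, at 76.0% identity, had 1034 and 0.73 TPM in animal 2, and 116 and 0.53 TPM in animal 1. Apart from Akr1b3, Akr1c13 and Akr1c12, no gene shared more than 3.21% of its windows with another gene, and Akr1d1, Akr1e1 and Akr1c14 shared none.

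**Figure D3:**
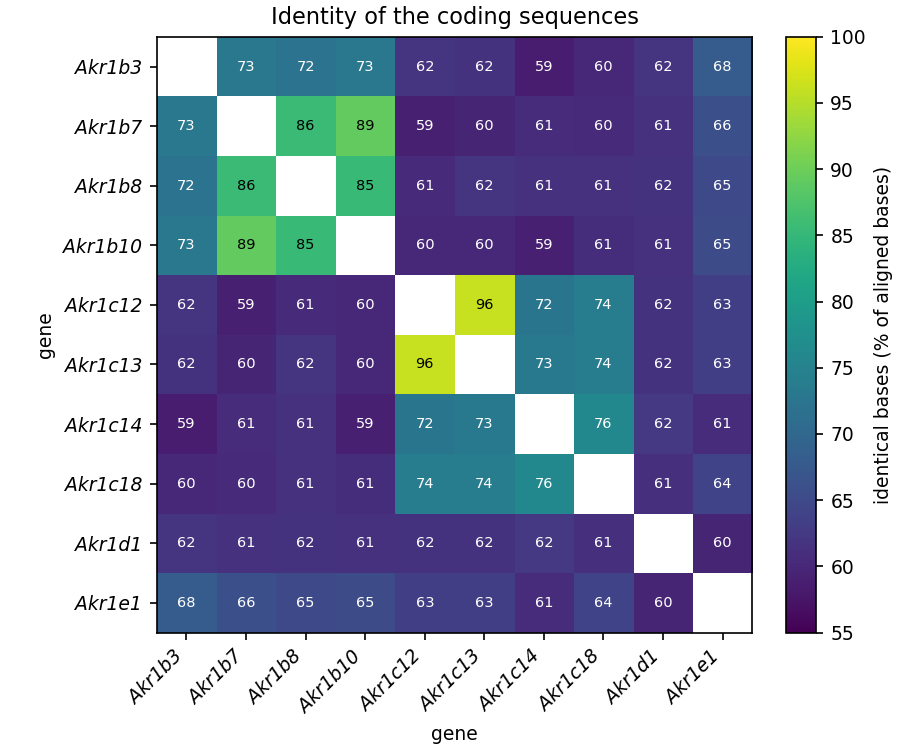
Identity of the coding sequences for each pair of the 10 genes, in percent of aligned bases, with the value in each cell. The pair Akr1c13 and Akr1c12 stands at 96%, the Akr1b7, Akr1b8 and Akr1b10 block at 85% to 89%, and Akr1d1 and Akr1e1 are distant from all others.

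Akr1e1, the reductase of 1,5-anhydrofructose, had 7.61 TPM in animal 2, against 10.6 TPM in animal 1 (9.11 ± 2.12 TPM, SD, n = 2), from 439 and 657 counts. Its deposited intervals overlapped and its log2 ratio was -0.50. Its level also rested on a short transcript. Akr1e1-203, a non-coding transcript of 412 bases, took 56.9% of the gene's TPM in animal 2 and 54.4% in animal 1, but only 11% and 10.7% of its reads. In the second table that transcript had 5.92% in animal 2 and 0% in animal 1, and the coding Akr1e1-201 led. The mean log2 ratio of Akr1e1 to Akr1b3 differed between the tables, at -3.28 ± 0.42 in the gene table and -5.0 in the second.

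Non-coding transcripts took a share of several other genes. For Akr1b3, the coding transcript Akr1b3-201 had 52.8% of the TPM in animal 2 and 52.6% in animal 1. The retained-intron transcript Akr1b3-204, of 554 bases, had 44.9% and 44.7%. Of the gene's reads, Akr1b3-204 took 21.6% in animal 2 and 22.3% in animal 1, and Akr1b3-201 took 71.9% and 74.1%. In the second table Akr1b3-204 led with 53.1% in animal 2 and 52.9% in animal 1. For Akr1b10, the coding transcript Akr1b10-201 had 63.4% in animal 2 and 79.8% in animal 1. The Akr1b10 transcript marked for nonsense-mediated decay, Akr1b10-203, had 12.3 TPM in animal 2, against 6.24 TPM in animal 1, and Akr1b10-201 had 29.5 and 31.2 TPM, so in the first table the higher Akr1b10 total of animal 2 did not come from the coding transcript. In the second table the Akr1b10-203 level was 2.54 TPM in animal 2, against 1.08 TPM in animal 1. Akr1c18-201 kept 93.5% of its gene's TPM in animal 2 and 94.1% in animal 1, so the gap between the animals lay on the main coding transcript.

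**Figure D4:**
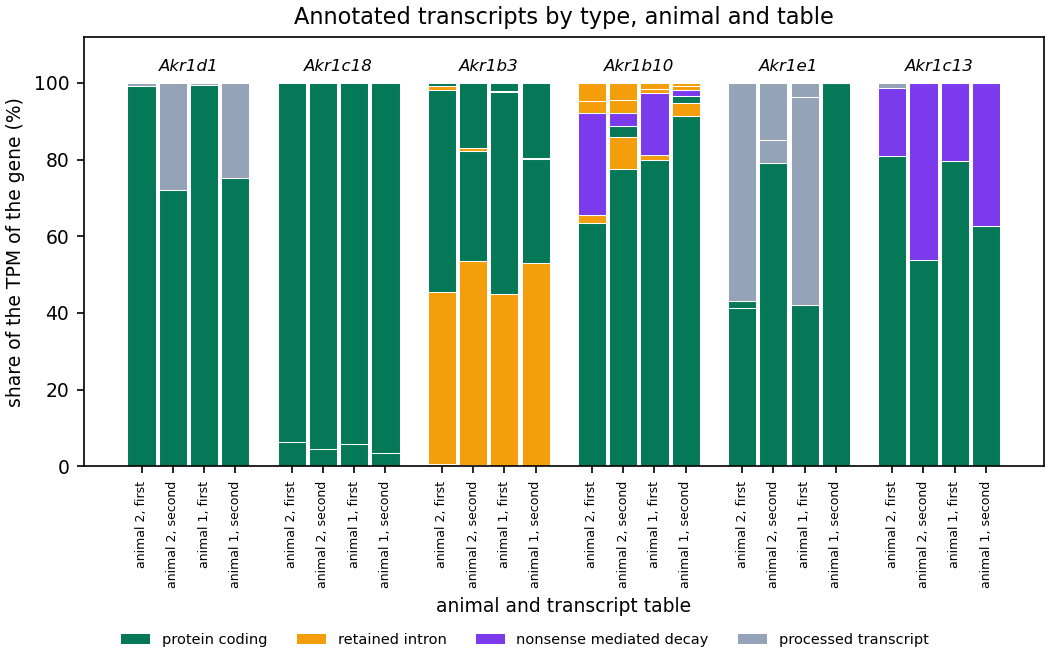
Share of each gene's TPM (percent) on its annotated transcripts, coloured by transcript type, for animal 2 and animal 1 in the first and the second transcript table. Akr1d1, Akr1b3, Akr1e1 and Akr1c13 change their make-up between the tables more than between the animals.

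Apart from Akr1d1, the genes lie in 2 clusters (coordinates in GRCm38). The Akr1b cluster on chromosome 6 spans 120.7 kb from Akr1b3 to Akr1b7 and holds 8 annotated genes, of which 4 are the reductases and 4 are non-coding, 3 of them pseudogenes. Its reductases are Akr1b3 (ENSMUSG00000001642.18, chr6:34302434-34317478, minus strand), Akr1b8 (ENSMUSG00000029762.6, chr6:34354119-34368463, plus strand), Akr1b10 (ENSMUSG00000061758.13, chr6:34384218-34396950, plus strand) and Akr1b7. None of the 4 non-coding genes had more than 3 counts in either animal. The Akr1c cluster on chromosome 13 spans 560.2 kb from Akr1c14 to Akr1e1 and holds 18 annotated genes, 5 of them described here. Akr1c14 (ENSMUSG00000033715.15, chr13:4049011-4090688) and Akr1c13 (ENSMUSG00000021213.12, chr13:4191150-4205596) are on the plus strand. Akr1c18 (ENSMUSG00000021214.14, chr13:4132615-4150654), Akr1c12 (ENSMUSG00000021211.4, chr13:4268176-4279433) and Akr1e1 (ENSMUSG00000045410.18, chr13:4590750-4609174) are on the minus strand. The cluster's 4 other coding genes, Akr1c6, Akr1c19, Akr1c20 and Akr1c21, lay under 0.5 TPM, and its 9 non-coding genes had at most 5 counts. Akr1c18, with 1034 TPM in animal 2, against 116 TPM in animal 1, thus has no strongly read neighbour: Gm47905 on one side had 0 counts and Gm47925 on the other had 0.36 TPM in animal 2, against 0 in animal 1. Beyond Akr1b7 lies Bpgm, with 7.91 TPM in animal 2, against 10.4 TPM in animal 1, and beyond Akr1e1 lies Rpl29-ps2, with 0.10 and 0.12 TPM. Gm13855 beside Akr1b3 and Gm47853 beside Akr1c14 were listed at 0 TPM in both animals.

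**Figure D5:**
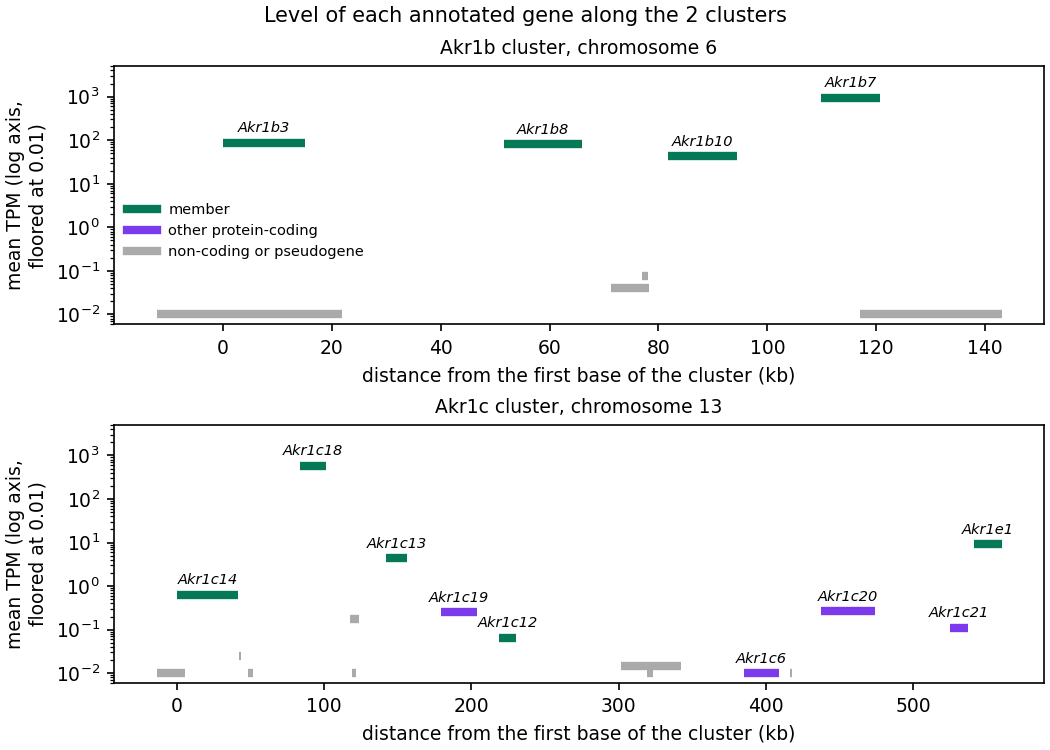
Mean TPM of both animals (log axis, floored at 0.01) of each annotated gene against its distance from the first base of the cluster in kb, for the Akr1b cluster (top) and the Akr1c cluster (bottom). Green bars are the genes described, violet bars other coding genes and grey bars non-coding genes and pseudogenes; Akr1b7, at 954 TPM, and Akr1c18, at 575 TPM, are the highest of their clusters.

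Among the other aldo-keto reductases, 2 lay between Akr1c18 and Akr1b3 in mean level. In animal 1 both lay above Akr1c18, which had 116 TPM there. Akr1cl had 300 TPM in animal 2, against 330 TPM in animal 1, and Akr1a1, the aldehyde reductase of the ascorbate pathway, had 274 and 257 TPM. Akr7a5 had 21.5 TPM in animal 2, against 19.0 TPM in animal 1. The potassium channel beta subunits Kcnab3 and Kcnab2 stood at 2.06 and 1.39 TPM in animal 2, and at 2.88 and 1.31 TPM in animal 1. Kcnab1, at 0.41 TPM in animal 2, against 1.00 TPM in animal 1, was the 1 gene called of these 10, of which 6 averaged the 50 counts a call needs, and was lower in animal 2. Akr1c6 had 0 counts in both animals.

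Genes of the pathways around the family were read from lists chosen with earlier results of these data known. The background of 3.47% called is given beside them, and no excess is read from it. Only genes averaging 50 counts or more could be called. Of 11 genes of progesterone and steroid reduction, 10 reached this and 3 were called. The 5-alpha-reductase Srd5a2 had 70.3 TPM in animal 2, against 18.5 TPM in animal 1, while the dehydrogenases Rdh16 (1.22 and 3.55 TPM) and Dhrs9 (0.63 and 2.41 TPM) were lower in animal 2. The highest of that list, Hsd17b12, had 72.8 TPM in animal 2, against 87.8 TPM in animal 1, followed by Hsd17b4 (47.4 and 51.9 TPM) and Hsd17b10 (46.5 and 45.9 TPM). Of 10 other carbonyl reductases and aldehyde dehydrogenases, which all reached it, Aldh1a1 was the 1 called, with 36.9 TPM in animal 2, against 14 TPM in animal 1. Aldh2, the main mitochondrial aldehyde dehydrogenase, had 701 TPM in animal 2, against 534 TPM in animal 1, Adh5 had 62.9 and 57.4 TPM and Dcxr 31.4 and 40.6 TPM.

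Among 11 targets of NRF2, the regulator of antioxidant genes, 9 averaged enough counts and 1 was called. Srxn1, which repairs oxidised peroxiredoxins, had 165 TPM in animal 2, against 60.2 TPM in animal 1, while the classical target Nqo1 had 1.82 and 2.12 TPM. The other leading genes of that list, Gstm1 and Ephx1, had 128 and 68.7 TPM in animal 2, and 114 and 95.5 TPM in animal 1. None of the 5 polyol genes, the 7 NADPH genes and the 8 of 12 prostaglandin genes with enough counts was called. Ptgs2, an inducible prostaglandin synthase, was among the 4 prostaglandin genes below that depth, with 50 counts in animal 2, against 10 in animal 1; no test was possible, so no p-value stands beside these counts. Aldoa had 785 TPM in animal 2, against 920 TPM in animal 1, and Khk 17.8 and 14.9 TPM. Sord, which takes the sorbitol made by aldose reductase to fructose, had 20.6 TPM in animal 2, against 22.8 TPM in animal 1. Ptges3 was the highest prostaglandin gene at 68.7 and 53.8 TPM, ahead of Ptgr2 at 24.9 and 29.2 TPM and Ptges2 at 17.2 and 18.3 TPM. Me1, a source of the NADPH that these reductases use, had 411 TPM in animal 2, against 386 TPM in animal 1, ahead of Idh1 (167 and 167 TPM) and Pgd (99.5 and 104 TPM).

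Over the 9 genes of the family averaging 10 counts or more, the median log2 ratio was 0.16, against -0.01 over 17024 genes of that depth. By TMM, 6 of the 10 genes were higher in animal 2 and 4 in animal 1. Scaling on spike-ins moved the median of all genes to 0.21, and that of the family to 0.38.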

How the data were processed

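Total RNA of 2 adrenal glands was measured, 1 library each. Per the labels, the assembly is mm10; per the description deposited with the files, the annotation is GENCODE M21 and the gene and first transcript tables derive from an alignment to the transcriptome. The authors deposited expected counts (estimated, not whole), TPM and bounds of an interval of a posterior TPM at an unstated level. The second transcript table, deposited by the authors, holds estimated counts and TPM. Percentages of a gene per transcript are also deposited, per the file headers; the shares printed here were recomputed from TPM. Program names and versions: not given in the sources used here. For 3 of the 10 genes in animal 2 and 2 in animal 1 (Akr1b7, Akr1d1 and, in animal 2, Akr1c18) the deposited TPM lies above its own interval.

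Counts were rounded, TMM factors came from edgeR 4.0.16 under R 4.3.3 over genes averaging 10 counts or more, and log2 ratios of animal 2 over animal 1 used 0.5 added counts. The ratio step was tried on simulated counts, which can check the calculation but not the differences between these animals. The 95% intervals are exact binomial intervals on the count split, and these and the floor of 3 counts cover counting error only. With 1 group of 2 libraries no test was made, and the SD of n = 2 may be technical. The estimated counts of the second table summed to 34894349 in animal 2 and 34601631 in animal 1. The 96 spike-ins and 26249 entries named by a number, which hold 4 counts per library, were left out. Logs of TPM ratios within a library used 0.01 added. Alternatives included DESeq2 1.42.0 size factors and spike-in totals. Coding identities come from global alignments (Biopython 1.88).

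The genes and lists were chosen with earlier results of these data known. Named were all 10 genes, the other aldo-keto reductases, and the 3 highest and every called gene of each pathway list. Also named were the flanking genes and the 5 genes nearest in ratio to Akr1c18, after Gm-number, Rik and non-coding genes were left out. Nqo1, Ptgs2, Gm7463, 2010109I03Rik, the Akr1b3 copies and the marker genes named beside them were chosen after their values were seen.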

Additional observations from a re-analysis of the deposited data

How the results depend on the processing

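The summed level was 2346 TPM; it was 4498 TPM in the second table, 3978 TPM on that table's protein-coding transcripts alone (an alternative chosen after seeing the data) and 7736 TPM rescaled over nuclear protein-coding genes, and ranged from 1931 to 2762 TPM with each animal left out. The median log2 ratio of 0.16 was 0.38 with spike-in totals and 0.41 as the ratio of deposited TPM. The TPM figure has no median of all genes beside it. It rests partly on the low-count gene Akr1c14, whose ratio changed sign as given below. The number of genes at least 2-fold apart was 1, and 4 at 1.5-fold. Akr1d1 had the smallest difference of these 4. Of the 13570 genes averaging 50 counts or more, 13.2% had a log2 ratio at least as far from 0 as Akr1d1. That share sets no condition on the TPM intervals, and the share of all genes called at 1.5-fold was not computed. Detected genes numbered 7 to 9 over the thresholds and tables tried, and 8 with each animal left out. Akr1c14 had a log2 ratio of -0.31 from counts and 0.46 from deposited TPM. Akr1c12, with 2 or 3 counts, is not read. The other 8 genes kept their direction in each scaling and prior run, and in the estimated counts of the second table. By the TPM of the second table, however, Akr1b3 was lower in animal 2, at 242 TPM, against 258 TPM in animal 1. Akr1c13 ranked above Akr1e1 in the second table. The log2 ratio of the gene table to the second table was taken with 1 added to each mean TPM. Over the 13570 genes averaging 50 counts or more, its median was -0.76 (5th to 95th percentile -1.32 to -0.27). Akr1b3, at -1.50, and Akr1e1, at 0.20, lay outside that range, and the cause was not tested. The -0.03 of Akr1c12, at 0.065 TPM against 0.086 TPM, is set by the added 1 and is not read. No paired analysis was possible because the series holds 1 group. Depth limits Akr1c12 and Akr1c14, at 2 to 50 counts.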
